A study of Mus musculus with 2 samples.

Results

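The genes described here build, modify and store fatty acids: 35 genes of fatty acid synthesis, desaturation, elongation, activation and triglyceride assembly, together with lipoprotein lipase and the proteins that take up and bind fatty acids. They were chosen by gene symbol for their known roles, with earlier results of these data known. All 35 were found among the 24421 rows of a count table from mouse ovary. The table holds 2 libraries, 1 labelled wild type and 1 labelled H19KO with the further note H19(Δ3), which the labels do not explain. Both came from ovaries of C57BL/6J mice 8 weeks old that received no treatment, and whether each library pools several animals is not stated. The study asked which ovarian genes depend on H19, an imprinted long noncoding RNA.

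Cells make palmitate in the cytosol. ATP citrate lyase and acetyl-CoA synthetase supply acetyl-CoA, acetyl-CoA carboxylase turns it into malonyl-CoA, and fatty acid synthase joins the units with reducing power from NADPH, part of which comes from malic enzyme. Elongases of the endoplasmic reticulum lengthen the chain, desaturases put in double bonds, acyl-CoA synthetases activate the acid for use, and a chain of acyltransferases and lipins builds triglyceride. The transcription factor SREBP-1 drives much of this programme, and in the ovary steroid-making cells keep fatty acids in lipid droplets as cholesteryl esters and triglyceride.

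The wild-type library held 23335131 counts and the knockout library 23041225, of which the 35 genes took 0.900% and 0.828%. H19 was counted 672 times in the wild-type library and 0 times in the knockout library, which a count of 0 places at least 223-fold lower when it is taken to allow 3 counts. With 1 library per genotype there is no replicate check and no test, so each value describes these 2 libraries. In whole organs, fewer cells of a type and less RNA per cell cannot be told apart. All 10 granulosa cell markers and all 8 oocyte markers listed reached 1 CPM over the 2 libraries, as the label ovary states. Ratios are knockout over wild type on the log2 scale after TMM scaling, given in brackets after the wild-type and the knockout count in that order, and the ranges that follow them are exact binomial 95% intervals, which cover counting error only. A gene is called higher or lower when its mean is at least 1 CPM (counts scaled to 1000000 per library) and its whole interval lies on 1 side of equality.

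The calls are given by step of the pathway, and no difference between steps was tested. All 5 desaturases and 3 of the 5 elongases were lower in the knockout library and none was higher. The cytosolic malic enzyme Me1 was at about 2 times its wild-type level. Of 4 acyl-CoA synthetases 2 were higher, as were 3 of 5 genes of uptake and binding and 2 of the 6 measured genes of glycerolipid assembly, with none, 1 and none lower. Of the 34 genes that reached 1 CPM, 9 were higher, 11 were lower and 14 had an interval that spanned equality. Over all 13928 genes of at least 1 CPM, 22.2% were higher and 24.0% lower by the same rule. Among the 5828 genes of at least 40 CPM, a limit added after the data were seen because these genes are abundant, the shares were 28.5% and 31.6%; 22 of the set reached it, 6 higher and 9 lower. The median log2 ratio of the set was -0.02, beside -0.01 for all genes, and the mean was -0.02.

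Only Me1 and Scd2 had an interval beyond 1.5-fold, Me1 above it and Scd2 below it, where 1.80% and 1.21% of all genes lay above and below that limit. None of the 34 lay beyond 2-fold by the whole interval, against 0.610% of all genes above and 0.388% below. The single gene below 1 CPM was Mogat1, a monoacylglycerol acyltransferase, with 0 wild-type counts and 1 knockout count.

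**Figure D1:**
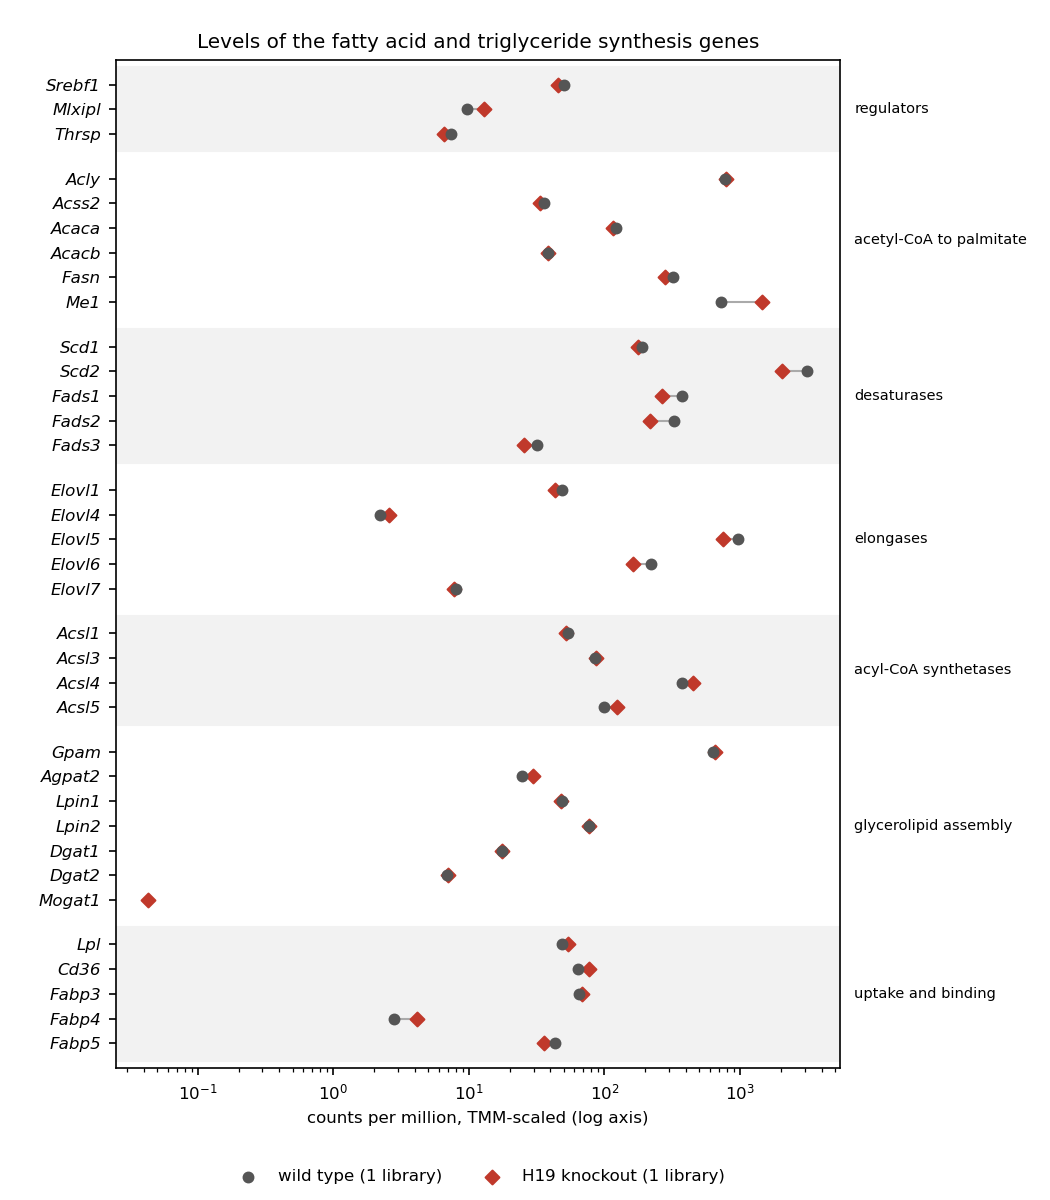
Level of each of the 35 genes in CPM (log axis) in the wild-type library (grey circles) and the H19 knockout library (red diamonds), grouped by role. Me1 lies farther right in the knockout, all 5 desaturases lie farther left, and Mogat1 has no wild-type point because its count there was 0.

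Stearoyl-CoA desaturases put the first double bond into saturated fatty acids and make palmitoleate and oleate. Scd2 (mm10 chromosome 19, 44293674 to 44306864, plus strand) was the most abundant gene of the set, counted 72685 times in the wild-type library and 47128 times in the knockout library. Its log2 ratio was -0.62 (-0.63 to -0.60), or 0.652 of the wild-type level. Its neighbour Scd1 (44394455 to 44407879, minus strand), the main isoform of liver and fat, had 4404 and 4070 counts (-0.11, -0.17 to -0.04). The difference was thus larger for Scd2 than for Scd1, and the 2 intervals did not overlap. Scd2 made up 94.3% (94.1 to 94.4, Wilson interval) of the counts of the pair in the wild type and 92.1% (91.8 to 92.3) in the knockout. Few sequences are shared between the 2: 3.13% of the 76-base windows of Scd1 transcripts and 1.74% of those of Scd2 occur in a transcript of another gene, so reads could be told apart over most of their length. Of the other copies in that cluster, Scd3 had 11 and 9 counts and Scd4 28 and 42.

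The front-end desaturases make polyunsaturated acids. Fads2, the desaturase that starts the conversion of linoleate towards arachidonate, had 7573 and 5009 counts (-0.59, -0.64 to -0.54). Fads1, the desaturase that completes the conversion, had 8716 and 6176 counts (-0.49, -0.54 to -0.44). Both genes were lower, with intervals that nearly met, and Fads1 held 53.5% (52.7 to 54.3) of the counts of the pair in the wild type and 55.2% (54.3 to 56.1) in the knockout. Fads3, their less abundant relative, had 737 and 588 counts (-0.32, -0.48 to -0.16). Summed over the 5 desaturases, counts were 94115 and 62971, a log2 ratio of -0.57 (-0.59 to -0.56); without Scd2 the sum still had one of -0.43 (-0.46 to -0.40).

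The Fads genes lie side by side on chromosome 19 (10041569 to 10196877), as do Scd1 and Scd2, and Gpam and Acsl5 are on the same chromosome. Within 200 kb of the Fads genes, 8 other genes reached 1 CPM, of which 1 was higher, 2 were lower and 5 spanned equality, with a median log2 ratio of -0.02. The 2 lower neighbours were Syt7, at -0.56 (-0.66 to -0.46), and Dagla, at -0.34 (-0.62 to -0.07). Around Scd1 and Scd2, all 7 neighbours spanned equality. The median of the 459 genes measured on chromosome 19 was -0.03.

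Elongases lengthen a fatty acid by adding carbon units to it. Elovl5, which lengthens the polyunsaturated products of Fads2, had 22568 and 17343 counts (-0.37, -0.40 to -0.34). Elovl6, which lengthens palmitate to stearate, had 5159 and 3746 counts (-0.45, -0.51 to -0.39). Elovl1, an elongase of saturated very-long-chain acids, had 1137 and 1007 counts (-0.17, -0.29 to -0.04). Its exons overlap those of Cdc20 on the opposite strand, a gene with 656 and 499 counts, and without a stated strand setting the reads of the 2 cannot be told apart. The 2 scarce elongases spanned equality: Elovl7 had 187 and 180 counts, and Elovl4 had 51 and 60. Elovl5 supplied 77.5% (77.1 to 78.0) of elongase counts in the wild type and 77.6% (77.1 to 78.2) in the knockout, with intervals that overlapped.

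Fads2, Elovl5 and Fads1 act in that order on the route from linoleate to arachidonate, and each was lower in the knockout library. Elovl2, which acts on the longer products and was on a separate list of related genes, was lower as well, with 207 and 160 counts (-0.36, -0.67 to -0.06). The other enzymes of the elongation cycle were mixed. Tecr, the reductase of the last step, had 8016 and 6700 counts (-0.25, -0.30 to -0.20), and Hsd17b12, the ketoacyl reductase, had 1579 and 1441 (-0.12, -0.23 to -0.02); both were lower. Of the dehydratases, Hacd4 was higher with 451 and 538 counts (0.26, 0.08 to 0.45), and Hacd1, Hacd2 and Hacd3 spanned equality, the most abundant being Hacd3 with 5835 and 5875 (0.02, -0.03 to 0.07).

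**Figure D2:**
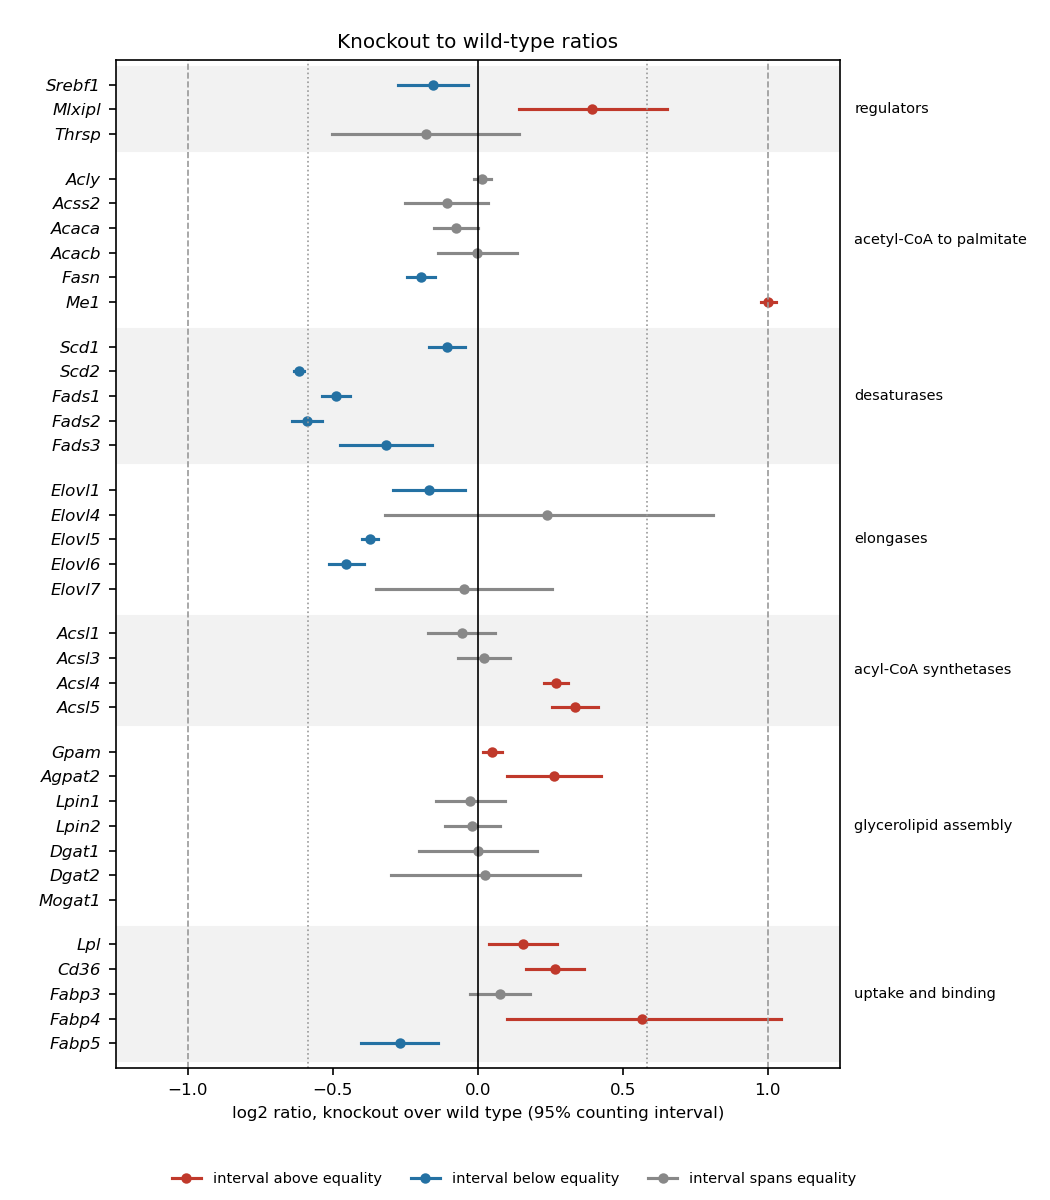
Log2 ratio of knockout over wild type with its exact binomial 95% interval, for the 34 genes of at least 1 CPM, by role; dotted lines mark 1.5-fold and dashed lines 2-fold. The 5 desaturases, Elovl1, Elovl5 and Elovl6 lie left of 0, Me1 lies at 1.00 on the right, and Mogat1 has no value because its counts were 0 and 1.

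Me1 differed most. It encodes the cytosolic malic enzyme, which turns malate into pyruvate and yields NADPH. Me1 (chromosome 9, 86581371 to 86695953, minus strand) was counted 16901 times in the wild-type and 33687 times in the knockout library. Its log2 ratio of 1.00 (0.98 to 1.03) was higher than that of 98.5% of all genes of at least 1 CPM. The interval spanned 2-fold. By length, Me1 ranked 3 of the 35 genes at 189 CPM per kilobase of exon in the wild type, and rank 1 in the knockout at 379. Of the 76-base windows of its transcripts, 16.2% also occur in Gm7049 or Gm7329, which have no row in the table, so reads of those windows may have been lost or assigned here.

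The other NADPH sources did not share the size of that difference. Pgd, of the pentose phosphate pathway, had 2044 and 2771 counts (0.45, 0.36 to 0.53), and the mitochondrial malic enzyme Me2 had 4642 and 4943 (0.10, 0.04 to 0.16). G6pdx, the first enzyme of the pentose phosphate pathway, had 3030 and 2964 (-0.02, -0.10 to 0.05), and the cytosolic isocitrate dehydrogenase Idh1 had 35847 and 32987 (-0.11, -0.13 to -0.09). Among the summed counts of these 5 genes, the share of Me1 was 27.1% (26.7 to 27.4) in the wild type and 43.6% (43.2 to 43.9) in the knockout. Within 200 kb of Me1, 5 other genes reached 1 CPM. The abundant serine protease homologue Prss35, which was picked out here after its values were seen, had 25842 and 57292 counts (1.16, 1.14 to 1.18). Of the other 4, Pgm3 was higher at 0.16 (0.04 to 0.28), Snap91 was lower with 105 and 76 counts, and 2 spanned equality.

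The enzymes that lead to palmitate were close to equal. Acly, ATP citrate lyase, had 18183 and 18287 counts (0.02, -0.01 to 0.05). Acaca, the acetyl-CoA carboxylase of lipid-making cells, had 2852 and 2693 counts (-0.07, -0.15 to 0.00), and Acacb, the mitochondrial form, had 895 and 889 (0.00, -0.14 to 0.13). Acss2, which makes acetyl-CoA from acetate, had 836 and 772 counts (-0.11, -0.25 to 0.04); its exons overlap those of Gss and Ggt7 on the opposite strand, with 297 and 375 and with 63 and 104 counts. Fasn, fatty acid synthase, was the only one of these 5 that was lower, with 7471 and 6485 counts (-0.20, -0.24 to -0.15). The summed counts of Me1 and these 5 genes had a log2 ratio of 0.42 (0.40 to 0.44), but without Me1 the sum turned to -0.05 (-0.07 to -0.02). Of the windows of Acaca transcripts, 26.6% occur in other transcripts.

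The regulators were of low to moderate abundance. Srebf1, which encodes SREBP-1, had 1177 and 1051 counts (-0.16, -0.28 to -0.03). Rai1 overlaps its exons on the opposite strand and had 1335 and 1106 counts. Mlxipl, which encodes the carbohydrate-responsive factor ChREBP, had 227 and 297 counts (0.40, 0.14 to 0.65). Thrsp, a small protein that promotes lipid synthesis, had 173 and 152 counts (-0.18, -0.50 to 0.14). Srebf1 was thus lower, Mlxipl higher and Thrsp not separable from equality at its depth. On the list of related genes, Insig1, which holds SREBPs in the endoplasmic reticulum and is itself a target of them, had 3466 and 2603 counts (-0.41, -0.48 to -0.33), whereas Insig2, of the same role, had 448 and 516 (0.21, 0.03 to 0.40). Scap, which escorts SREBPs, had 8028 and 7188 (-0.15, -0.20 to -0.11). Mid1ip1, the relative of Thrsp that activates acetyl-CoA carboxylase, had 5369 and 4231 (-0.34, -0.39 to -0.28). Of the liver X receptors, which induce Srebf1, Nr1h3 had 255 and 315 counts (0.31, 0.07 to 0.56) and Nr1h2 had 1410 and 1201 (-0.22, -0.34 to -0.11).

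The start regions of 4 genes are shown so that their letters can be set beside the ratios: Me1, which was higher, and Elovl5, Elovl6 and Fads2, lower genes of elongation and desaturation. They were picked after their values were seen. Each is a RefSeq window on GRCm38.p6 from 250 bases before to 50 after the start, read 5′ to 3′ along the gene. Me1 is from chr9:86695865-86696164 on the minus strand (the first of its 2 windows), Elovl5 from chr9:77917115-77917414 and Elovl6 from chr3:129532136-129532435 on the plus strand, and Fads2 from chr19:10101454-10101753 on the minus strand.
Me1: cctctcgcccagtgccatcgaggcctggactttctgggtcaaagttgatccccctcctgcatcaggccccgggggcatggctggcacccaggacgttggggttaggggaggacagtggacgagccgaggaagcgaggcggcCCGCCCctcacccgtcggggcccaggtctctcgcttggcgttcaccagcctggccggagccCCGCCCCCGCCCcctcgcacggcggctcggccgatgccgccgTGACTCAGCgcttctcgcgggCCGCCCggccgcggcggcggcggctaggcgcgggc
Elovl5: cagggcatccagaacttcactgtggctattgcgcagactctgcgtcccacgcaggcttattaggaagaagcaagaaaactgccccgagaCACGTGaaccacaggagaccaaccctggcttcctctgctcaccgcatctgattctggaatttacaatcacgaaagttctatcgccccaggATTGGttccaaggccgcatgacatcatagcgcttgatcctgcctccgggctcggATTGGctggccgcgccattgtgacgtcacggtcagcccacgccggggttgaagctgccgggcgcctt
Elovl6: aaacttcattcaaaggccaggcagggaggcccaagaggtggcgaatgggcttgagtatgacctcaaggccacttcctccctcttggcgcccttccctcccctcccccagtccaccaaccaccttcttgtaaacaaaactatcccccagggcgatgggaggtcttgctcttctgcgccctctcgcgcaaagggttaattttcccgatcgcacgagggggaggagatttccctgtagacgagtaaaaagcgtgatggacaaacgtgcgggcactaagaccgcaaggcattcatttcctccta
Fads2: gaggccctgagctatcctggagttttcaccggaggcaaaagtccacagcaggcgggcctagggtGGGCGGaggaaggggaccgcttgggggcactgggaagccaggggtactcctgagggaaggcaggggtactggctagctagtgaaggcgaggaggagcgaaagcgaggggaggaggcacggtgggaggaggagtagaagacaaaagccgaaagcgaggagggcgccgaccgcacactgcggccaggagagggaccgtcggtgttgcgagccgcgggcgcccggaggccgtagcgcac

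Capitals mark exact matches, on either strand, to 5 motifs: TCACNCCAC, a form of the sterol regulatory element, CACGTG, the E-box, CCAAT, the NF-Y motif, TGACNNNGC, the core of the antioxidant response element, and GGGCGG, the GC box. Elovl5 held 1 E-box, 161 bases before the start, and 2 CCAAT motifs on the opposite strand. Me1 held TGACTCAGC from 6 bases before its start and 4 GC boxes, Fads2 held 1 GC box, and Elovl6 held none of the 5. RefSeq windows were found for 27 of the 35 genes, 36 windows in all. Scd1, Scd2, Fads1, Dgat1, Dgat2, Lpl, Fabp4 and Fabp5 had none, so the motifs were not searched in these genes. The sterol element letters were in 2 of those windows (5.56%) and in 1.24% of all 32851 windows, the antioxidant core in 3 (8.33%, against 12.4%), the E-box in 4 (11.1%, against 7.15%), CCAAT in 20 (55.6%, against 37.4%) and the GC box in 20 (55.6%, against 35.7%). The 2 windows with the sterol element letters belong to Acsl1 and Mlxipl. A match describes letters and is not evidence of a bound factor.

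**Figure D3:**
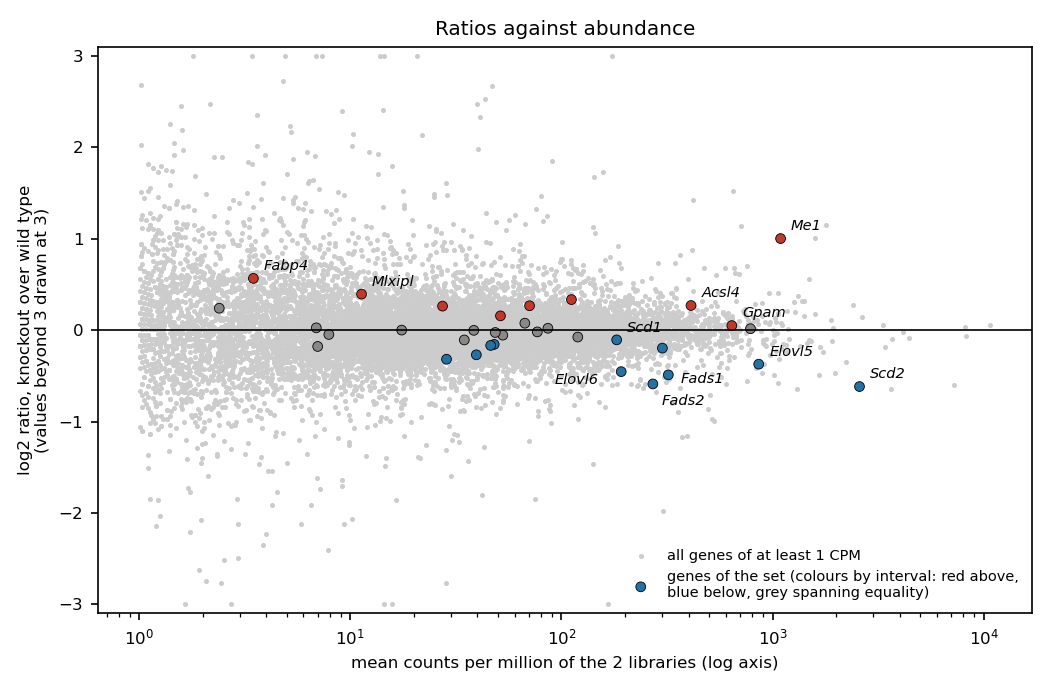
Log2 ratio of knockout over wild type against the mean CPM (log axis) for all 13928 genes of at least 1 CPM (light grey) and the 34 measured genes of the set (red, blue and grey for intervals above, below and spanning equality). Me1 (1.00) and Scd2 (-0.62), both among the abundant genes of the ovary, lie on opposite sides of 0.

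Long-chain acyl-CoA synthetases activate fatty acids for esterification or oxidation. Acsl4, which prefers arachidonate, was the most abundant, with 8664 and 10391 counts (0.27, 0.23 to 0.31). Acsl5 had 2294 and 2878 counts (0.34, 0.26 to 0.41); it overlaps Zdhhc6 on the opposite strand, which had 1803 and 2056 counts. Acsl3, of lipid droplets, had 1992 and 2010 counts (0.02, -0.07 to 0.11). Its exons overlap those of Utp14b on the same strand, which had 454 and 396 counts. Acsl1, the main form of fat and muscle, had 1250 and 1197 counts (-0.05, -0.17 to 0.06). So 2 of the 4 were higher and none was lower. Acsbg1, another acyl-CoA synthetase on the list of related genes, was more abundant than any of the 4 by counts, with 28773 and 26834 (-0.09, -0.12 to -0.07).

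The genes of glycerolipid assembly in the set were close to equality, with 2 of the 6 measured higher and 4 spanning equality. Gpam, the mitochondrial acyltransferase that starts it, had 14655 and 15094 counts (0.05, 0.02 to 0.08). Agpat2, which adds the next acyl chain, had 578 and 690 counts (0.26, 0.10 to 0.43); Egfl7, with 1186 and 1031 counts, overlaps it on the opposite strand. The phosphatidate phosphatases Lpin1, with 1140 and 1114 counts (-0.03, -0.15 to 0.10), and Lpin2, with 1799 and 1766 (-0.02, -0.11 to 0.08), both spanned equality. So did the acyltransferases that complete triglyceride, Dgat1 with 407 and 405 counts (0.00, -0.20 to 0.20) and Dgat2 with 159 and 161 (0.03, -0.30 to 0.35). Differences smaller than these intervals were not detectable at that depth. Lpin3, the third lipin and a gene of the related list, had 459 and 685 counts (0.59, 0.41 to 0.76). Agpat1, on that list too, was more abundant than Agpat2 and was lower, with 2171 and 1763 counts (-0.29, -0.38 to -0.20). Agpat3, Agpat4, Agpat5, Agpat6 and Agpat9 spanned equality.

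Of the 5 genes of uptake and binding 3 were higher, 1 was lower and 1 spanned equality. Lpl, which frees fatty acids from lipoproteins, had 1131 and 1254 counts (0.16, 0.04 to 0.27). Cd36, a fatty acid and lipoprotein receptor, had 1491 and 1785 counts (0.27, 0.17 to 0.37). Fabp4, the binding protein of fat cells, capillaries and macrophages, had only 65 and 96 counts (0.57, 0.10 to 1.05). Fabp5, the epidermal form, was lower with 1005 and 829 counts (-0.27, -0.40 to -0.14), and Fabp3, the heart form, spanned equality with 1519 and 1593 (0.08, -0.03 to 0.18). Of the windows of Fabp3 transcripts 24.2% occur in the pseudogene Fabp3-ps1. Zcchc17, with 836 and 944 counts, overlaps the exons of Fabp3 on the opposite strand. Among all genes of at least 1 CPM, 22.2% were higher and 24.0% lower. Macrophage, endothelial and fat cell markers stood beside the genes of uptake and binding as follows. Of 9 macrophage markers 6 were higher and 1 lower, and their sum was 389 CPM in wild type against 493 in knockout; of 12 endothelial markers 1 was higher and 9 lower, with 874 and 763 CPM. Of 8 adipocyte markers only Plin1 reached 1 CPM. Their sum of 16.3 and 13.2 CPM was mostly Plin1, with 341 of 378 and 253 of 305 counts. The scarce others went both ways. Adipoq had 5 and 3 counts, Pck1 8 and 4, Retn 6 and 0 and Lep 1 and 0, whereas Cfd had 12 and 33, Cidec 3 and 8 and Adrb3 2 and 4. The part of these cells in the differences of Lpl, Cd36 and Fabp4 was not tested.

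By length, the order of the genes in the wild type was led by Scd2 at 572 CPM per kilobase of exon, Elovl5 at 276, Me1 at 189, Acly at 148 and Fads2 at 98.8. In the knockout it was Me1 at 379, Scd2 at 373, Elovl5 at 213, Acly at 149.8 and Gpam at 98.0. Scd2 took 34.6% (34.4 to 34.8) of all counts of the set in the wild type and 24.7% (24.5 to 24.9) in the knockout, while Me1 took 8.04% (7.93 to 8.16) and 17.6% (17.5 to 17.8). Because of this weight the sum over the set follows these 2 genes. It was 210081 counts in the wild-type library against 190884 in the knockout library, at a log2 ratio of -0.13 (-0.14 to -0.12), but 0.07 (0.06 to 0.08) without Scd2, -0.29 (-0.30 to -0.28) without Me1 and -0.12 (-0.13 to -0.11) without both.

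Lists of related genes are given beside the set. With 1 library per genotype, no difference between lists was tested. Among all genes of at least 1 CPM, 22.2% were higher and 24.0% lower. Of 39 measured genes on the list of other fatty acid and glycerolipid synthesis genes, 10 were higher and 12 lower, with a median log2 ratio of -0.02. By the interval bound nearer to equality, the farthest there were Slc27a6, a fatty acid transport protein (292 and 481 counts, 0.73, 0.52 to 0.94), Pparg, a nuclear receptor that governs lipid storage (1337 and 915, -0.54, -0.66 to -0.42), and Lpin3. Of 29 genes of fatty acid oxidation and lipolysis, 14 were higher and 10 lower, with a median of 0.12. Cpt1a, the gate to mitochondrial oxidation, had 9405 and 10869 counts (0.22, 0.18 to 0.26), whereas Mgll, monoglyceride lipase, had 1038 and 624 (-0.73, -0.87 to -0.58). Ppara had 696 and 467 counts (-0.57, -0.74 to -0.40), and Cpt1c 239 and 364 (0.61, 0.38 to 0.86).

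Cholesterol synthesis and uptake, which SREBP-2 drives and which shares regulators with the desaturases, had 22 of 23 genes lower and none higher, with a median of -0.41, and 5 below 1.5-fold (3 under total count scaling). Its most abundant genes Hmgcs1, Scarb1 and Hsd17b7 had log2 ratios of -0.37, -0.47 and -0.97, and Srebf2 itself had 1874 and 1401 counts (-0.41, -0.51 to -0.31). The desaturases had a median of -0.49 and the elongases one of -0.17. The part of shared regulators in these differences was not tested. Among 11 lipid droplet protein genes, 3 were higher and 2 lower, with a median of -0.03; Plin4 had 12643 and 5650 counts (-1.15, -1.20 to -1.11), Hsd17b11 568 and 858 (0.60, 0.45 to 0.76) and Plin2 1530 and 1888 (0.31, 0.21 to 0.41).

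**Figure D4:**
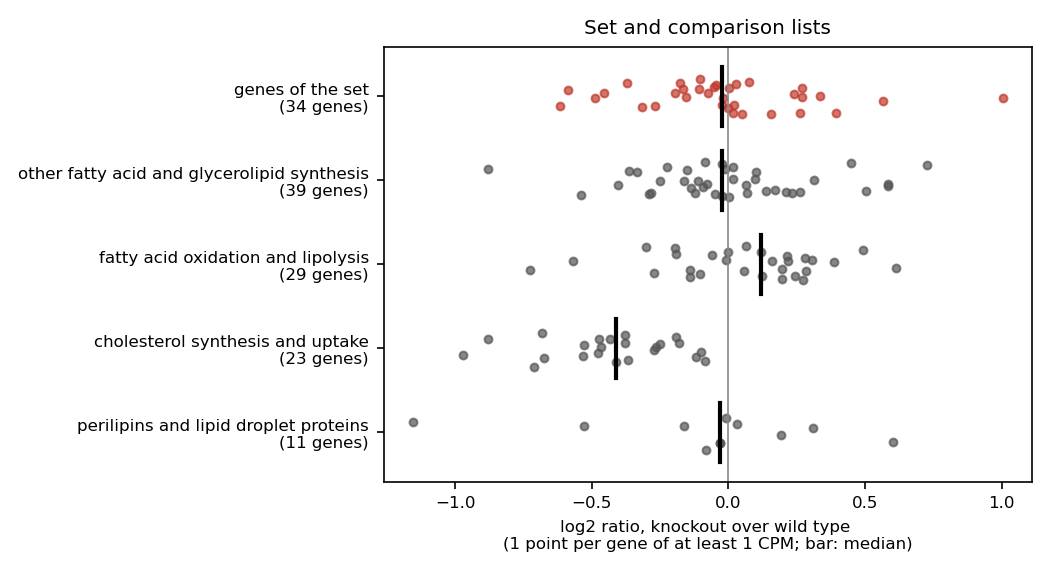
Log2 ratio of knockout over wild type for each gene of at least 1 CPM in the set (red) and in the comparison lists (grey), with a bar at the median. The set is centred at -0.02 with Me1 at the far right, and the cholesterol list is centred at -0.41 with no gene right of 0.

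Markers of ovarian cell types also differed between the 2 libraries. For scale, 22.2% of all genes of at least 1 CPM were higher and 24.0% lower. Of 10 granulosa cell markers 9 were lower and 1 higher, with a summed level of 5259 CPM in wild type against 4046 in knockout, at a log2 ratio of -0.38 (-0.39 to -0.37). Of 6 corpus luteum markers 5 were lower and 1 higher, with 4298 and 3208 CPM (-0.42, -0.44 to -0.41). Of 8 oocyte markers 7 were lower and none higher, with 420 and 332 CPM (-0.34, -0.38 to -0.30). Theca and interstitial markers went both ways, 2 higher and 4 lower of the 6 measured. Cyp17a1 had 11243 and 2834 counts (-1.98, -2.04 to -1.92), and Hsd17b7 (-0.97), Gli1 (-0.54) and Ptch1 (-0.14) were lower as well. Aldh1a1, with 50457 and 60594 counts (0.27, 0.26 to 0.29), and Mgarp (0.68) were higher. Their sums of 3964 and 3971 CPM were near equal because these differences offset each other, and Aldh1a1 held most of both. Insl3 had 1 and 2 counts. Hsd17b7 is on this list and on the cholesterol list, so its value is not particular to theca and interstitial cells. It held 15971 of the 92178 wild-type and 8094 of the 91831 knockout counts of the theca and interstitial sum. Of the 5 red blood cell markers, 4 haemoglobin genes were at 0 in both libraries and Alas2 had 89 and 44 counts. How reads were counted is not given, so these 0 counts are not read as absence of blood. Such sums follow the most abundant genes: Gja1 held 58177 of 122280 and 45469 of 93556 granulosa marker counts. By median, granulosa markers were at -0.51, corpus luteum markers at -0.49 and oocyte markers at -0.34. Single granulosa markers ranged from -1.60 (Cyp19a1) to 0.04 (Nr5a2). Beside the marker sums, the desaturase sum stood at -0.57, or -0.43 without Scd2, and the elongase sum at -0.37 (-0.40 to -0.35). By median, desaturases were at -0.49 and elongases at -0.17. The part of cell composition in the desaturase and elongase differences was not tested.

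**Figure D5:**
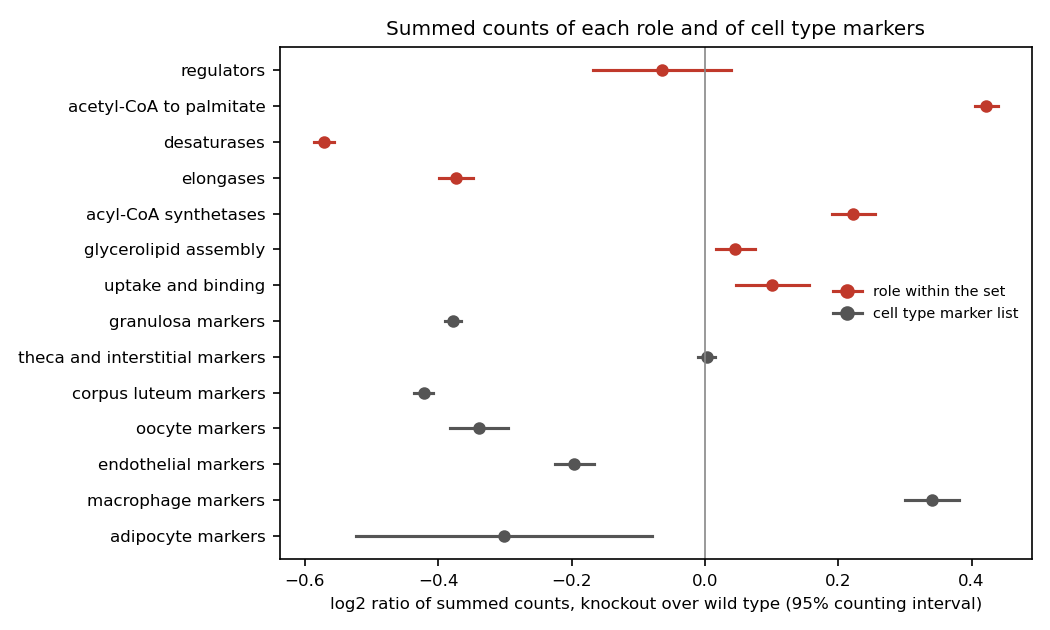
Log2 ratio of summed counts, knockout over wild type, with exact binomial 95% intervals, for the roles within the set (red) and for cell type marker lists (grey). Desaturases lie at -0.57, left of every marker sum drawn, and elongases lie at -0.37 beside the granulosa (-0.38) and corpus luteum (-0.42) markers. Sums follow the most abundant genes: by median, not drawn, the desaturases were at -0.49, granulosa markers at -0.51 and corpus luteum markers at -0.49. The acetyl-CoA to palmitate group lies at 0.42. Without Me1, which is not drawn, that group was at -0.05.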

How the data were processed

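Per the labels, total RNA from ovary was depleted of ribosomal RNA and made into stranded libraries, 1 per genotype, read with paired 76-base cycles. The authors deposited whole-number counts per gene symbol. The submitters' processing notes list STAR 2.5.0a, Cufflinks 2.2.1, DESeq2 1.0.0 and mm10 without roles; how reads were counted, on which annotation and with which strand setting, is not given in the sources used here, and rescaling before deposit cannot be told from the values. The 27 rows with dates for symbols (0.229% and 0.231% of counts) stayed in the totals.

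Libraries were scaled by TMM (edgeR 4.0.16, R 4.3.3). Log2 ratios add 0.5 to scaled counts, and intervals are exact conditional binomial (Clopper-Pearson) at 95%. Shares have Wilson intervals. The median half-width of the members' intervals was 0.11 log2 units. Exon lengths, overlaps and shared windows come from GENCODE M21 (mm10), which may differ from the authors' annotation. The members and lists were chosen with earlier results of these data known. Named were H19, all members, and per list at most 3 genes of highest mean and 3 farthest from equality. Further genes were named for their place in the pathway or as cell type markers after their values were seen. Scripts were tested on simulated data. Alternatives were other scalings (total counts, DESeq2 1.42.0 size factors, without the 10 most abundant genes), 5 added counts, other count minimums, point ratios and means, and were followed in Python 3.11.15, scipy 1.17.1, numpy 2.4.6, pandas 2.3.3 and matplotlib 3.10.9.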

Additional observations from a re-analysis of the deposited data

How the results depend on the processing

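None of the 136 member values under other scalings or with 5 added counts left its counting interval, and no member called higher or lower turned its direction. The other scalings shifted all genes alike by at most 0.01 log2 units. That is less than the half-width of any member interval, so the scalings could not have moved a member value out of it. Across the scalings and count minimums, 8 to 9 members were higher and 11 to 12 lower, and the medians of the set and lists kept their sides of 0 and moved by no more than 0.11 log2 units. Scaling by total counts left 3 cholesterol genes below 1.5-fold in place of 5 and a summed ratio of the set of -0.12, and median-of-ratios scaling put 1 oxidation gene below 1.5-fold in place of 0. Point ratios, a looser rule by construction, gave 15 higher and 19 lower members, 1 above 2-fold and 2 below 1.5-fold. By the same rule the related synthesis list had 18 higher and 21 lower genes, with 2 above and 1 below 1.5-fold, the oxidation list had 1 above and 1 below 1.5-fold, and the lipid droplet list had 7 lower and 1 above 1.5-fold. Sums with members left out were added after the data were seen: the whole set moved to -0.29 without Me1 and turned to 0.0733 without Scd2, the acetyl-CoA to palmitate group turned to -0.046 without Me1, and the desaturases moved to -0.43 without Scd2, each because that gene holds much of the sum. H19 stayed at least 221-fold lower under every scaling. No paired analysis was possible because there was only 1 library of each genotype, so that no replicate could be omitted either.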
